A study of Mus musculus with 4 samples.

Results

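The nuclei described here are the 50 that the authors kept and placed in a neuronal cluster they named Casr/Slc6a2. They make up 0.399% of the 12539 neurons and were found among 39461 kept nuclei of the mouse posterior hindbrain. The comparison set is the other 12489 neurons, which fall into 133 clusters. The study asked which hindbrain cells respond to hunger-like signalling, by driving AgRP neurons and inhibiting POMC neurons. Single-nucleus RNA sequencing was made from a piece of hindbrain that holds the area postrema and the nucleus of the solitary tract, with 2 libraries per group. AgRP-Gq;POMC-Gi mice carry the activating designer receptor hM3DGq fl/- under AgRP-IRES-Cre+/- in AgRP cells, and the inhibiting receptor hM4DGi fl/- under POMC-Dre+/- in POMC cells. Control mice are labelled wildtype, whereas the Methods list controls with both receptor alleles and neither recombinase. Mice of both groups were 12 to 20 weeks old, of both sexes, and received clozapine-N-oxide (CNO), the ligand of these receptors, at 3 mg per kg 1 h before the tissue was taken. The sources give 2 mice per group and say that samples of a condition were pooled. Which mice entered which library is not stated, so p-values measure the spread between libraries, which may be technical in part.

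Neurons that make noradrenaline convert tyrosine in steps, by tyrosine hydroxylase (*Th*), aromatic amino acid decarboxylase (*Ddc*) and dopamine β-hydroxylase (*Dbh*), and some add a last step to adrenaline by *Pnmt*. *Gch1* makes the cofactor that *Th* needs, *Slc18a2* loads the transmitter into vesicles, and *Slc6a2* encodes the noradrenaline transporter that takes it up again from outside the cell. *Casr* encodes the calcium-sensing receptor, best known from the parathyroid gland. The area postrema lies outside the blood-brain barrier and is known for sensing blood-borne signals that act on nausea and feeding.

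In the 4 libraries (control replicates 1 and 2, then AgRP-Gq;POMC-Gi replicates 1 and 2, the order used throughout) the cluster held 3, 5, 18 and 24 nuclei with 8360, 31967, 128169 and 174368 unique molecular identifiers (UMIs), each a counted RNA molecule. Both control libraries thus rest on few nuclei, and 3 counts, taken as the limit of what a count of 0 allows, correspond to 359, 93.8, 23.4 and 17.2 counts per 1e6 UMIs of the cluster's nuclei (CPM). The median nucleus had 1462, 6004, 6965.5 and 6389.5 UMIs, so control replicate 1 was also the shallowest, with 2 of its 3 nuclei under 2000 UMIs. Other neurons had a median of 8712 UMIs and the cluster 6273. No barcode of the cluster was shared between libraries. *Xist*, the X inactivation transcript, stood at 507, 319, 541 and 16.2 CPM in neurons, so AgRP-Gq;POMC-Gi replicate 2 stood apart from the other 3 libraries. The 2 libraries of that group thus do not hold the same mix of male and female nuclei.

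*Casr* (chr16:36493696-36562141, GRCm38) had 598, 125, 195 and 436 CPM in the cluster, and 0.497 CPM in other neurons. The level over all 50 nuclei was 321 CPM (95% Poisson interval 264 to 387, which like all intervals here covers counting error only), 646 times that of other neurons. Every library was above other neurons, the groups overlapped, and the ratio was 377 without AgRP-Gq;POMC-Gi replicate 2. The next cluster in the order, Gfral/Sctr (number 97), had 41.7 CPM (28.9 to 58.3), and 112 of the 133 other clusters had no *Casr* UMI. Of all 72 neurons with a *Casr* UMI, 44.4% were in this cluster, by 32 of its nuclei. These levels describe genes that entered the clustering, so no test is given for any difference between the cluster and other neurons.

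*Slc6a2* (chr8:92960079-93001667) had 239, 93.8, 148 and 224 CPM, 184 CPM over all nuclei (141 to 235) and 389 times the level of other neurons. Again each library was above other neurons and the groups overlapped. The next cluster had 19.7 CPM, and 109 of the other clusters had none. *Dbh* (chr2:27165233-27183200), the enzyme that turns dopamine into noradrenaline, had 120, 93.8, 70.2 and 68.8 CPM. Both control libraries were above both AgRP-Gq;POMC-Gi libraries, but they hold 1 and 3 UMIs of the gene. Its level of 72.9 CPM (47.2 to 108) was 59.5 times that of other neurons, or 37.5 times with nuclei thinned to 2000 UMIs. The next cluster, number 76, had 67.9 CPM (53.4 to 85.1), and the intervals overlap.

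**Figure D1:**
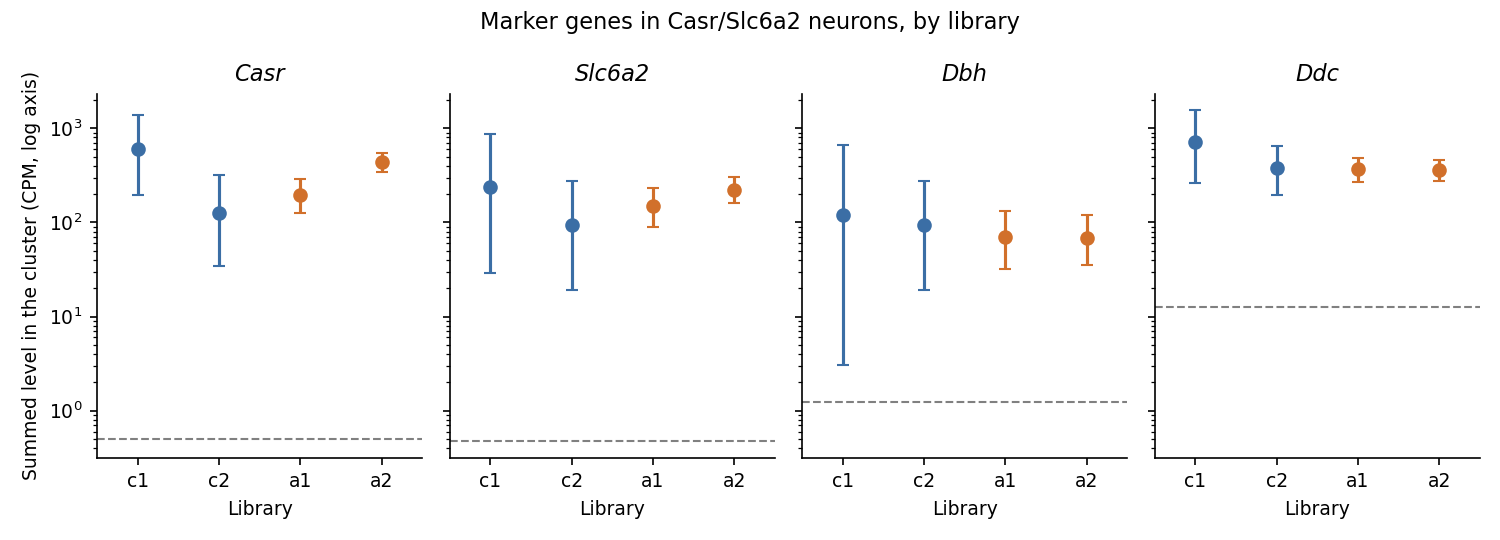
Summed level in CPM (log axis) of Casr, Slc6a2, Dbh and Ddc in the nuclei of the Casr/Slc6a2 cluster in each library (c1 and c2, control replicates 1 and 2, blue; a1 and a2, AgRP-Gq;POMC-Gi replicates 1 and 2, orange), with 95% Poisson intervals; dashed lines show other neurons. All 16 points lie above the dashed lines, and the control points have the widest intervals.

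The start regions of *Casr* and *Dbh*, which had their highest level here, and of *Ddc*, for which they ranked 3 of 134, are shown so that their levels can be read beside their sequence. Of 6 genes looked up in the RefSeq table for GRCm38.p6 (*Casr*, *Slc6a2*, *Dbh*, *Ddc*, *Gch1* and *Glp1r*), 5 matched. Each line gives the 250 bases before the start of *Casr* (chr16:36562135-36562384, minus strand), of *Dbh* (chr2:27165257-27165506, plus strand) and of the first *Ddc* start (chr11:11898145-11898394, minus strand). Capitals mark motifs on both strands. ATTA is the core read by many homeodomain factors such as Lmx1b. AGGTCA is only a part of the site of retinoic acid receptors such as Rarb, and CGTCA is part of a cAMP response element. None of these motifs contains another. RefSeq places the *Dbh* start later than the annotation that gave the gene span, so that window lies within the span.
Casr: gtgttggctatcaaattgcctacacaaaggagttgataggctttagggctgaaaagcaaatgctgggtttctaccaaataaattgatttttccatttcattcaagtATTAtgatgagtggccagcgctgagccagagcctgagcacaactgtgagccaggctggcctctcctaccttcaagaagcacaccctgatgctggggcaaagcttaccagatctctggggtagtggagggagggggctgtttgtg
Dbh: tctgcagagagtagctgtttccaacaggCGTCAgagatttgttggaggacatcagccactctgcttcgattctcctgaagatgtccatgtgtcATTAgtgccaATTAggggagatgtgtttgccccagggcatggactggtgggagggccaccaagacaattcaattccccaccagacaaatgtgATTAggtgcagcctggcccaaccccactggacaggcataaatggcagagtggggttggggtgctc
Ddc: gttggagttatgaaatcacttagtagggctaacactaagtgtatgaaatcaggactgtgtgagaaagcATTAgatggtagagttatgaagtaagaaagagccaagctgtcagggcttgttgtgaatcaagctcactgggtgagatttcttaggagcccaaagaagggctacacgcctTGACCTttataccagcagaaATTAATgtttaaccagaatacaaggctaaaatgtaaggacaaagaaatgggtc

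The *Dbh* window held 3 matches of ATTA and 1 of CGTCA, the *Ddc* window 3 of ATTA and 1 of AGGTCA, and the *Casr* window 1 of ATTA. Of 32536 promoters of the same length, 54.8% held ATTA, 14% AGGTCA and 17.9% CGTCA. At least 3 matches of ATTA stood in 17.2% of them. Among the 19 leading genes of the cluster with a promoter in the table, 10, 2 and 2 held these motifs.

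The catecholamine pathway was present only in parts, so the nuclei are called here by their leading genes rather than as catecholamine neurons. Beside *Dbh*, *Ddc* (chr11:11814101-11898144) had 718, 375, 367 and 361 CPM and 29.6 times the level of other neurons, with UMIs in 33 nuclei, and the highest neuronal cluster had 1017 CPM. *Gch1* had 0, 4, 10 and 18 UMIs in 22 nuclei and 93.3 CPM, 52.2 times that of other neurons, against 122 CPM in the highest cluster. *Cyb561*, which encodes an electron carrier of the vesicles that hold *Dbh*, had 61.2 CPM and a ratio of 7.55, the highest level of all 134 clusters.

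*Th*, the first enzyme of the pathway, had 0, 1, 0 and 6 UMIs in 5 of the 50 nuclei. Its 20.4 CPM were 6.08 times the level of other neurons but below the clusters Ebf2/Th (107 CPM), Rxfp1/Ebf2 (78.3 CPM), cluster 76 (57.0 CPM) and Gfral/Sctr (39.3 CPM). *Slc18a2* had 1 UMI in all 50 nuclei, 2.92 CPM against 23.1 CPM in other neurons, which puts the cluster at rank 133 of 134. *Pnmt*, *Slc6a3* and *Maob* had no UMI, while *Slc18a1*, a related vesicular transporter, had 4 UMIs in 2 nuclei. Of the 16 genes of synthesis and transport, 13 had a UMI and 11 had at least 5. Of these 11, 6 (54.5%) reached 4 times the level of other neurons, and 10 (90.9%) were above it. Over all 9058 genes with at least 5 UMIs in the cluster, 3.14% reached a ratio of 4 and 60.6% were above 1, and the median ratio was 1.12 against 6.08 for the list. The limit of 5 UMIs keeps genes that are rare in other neurons only where they are high here. *Slc6a2* and *Dbh*, which mark the cluster, are among the 6, so these counts describe the list and are no test. Summed over all 16 genes, the level was 995 CPM against 192 CPM in other neurons.

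*Rnf220*, which is expressed in noradrenergic neurons, had 4067, 2690, 2871 and 2351 CPM and 15.6 times the level of other neurons, second to the Gfral/Sctr cluster. *Tfap2b* had 190 CPM (8.00 times) and *Lmx1b* a ratio of 6.60. Both encode transcription factors of hindbrain neurons. *Phox2a*, a transcription factor of noradrenergic cells, had 1 UMI, and *Hand1*, *Hand2*, *Gata2* and *Gata3* had none. All 15 *Ebf3* UMIs came from 1 nucleus. In all, 4 of the 6 genes of this list with at least 5 UMIs, *Rnf220* among them, reached a ratio of 4, of 15 listed, against 3.14% of all genes. The limit of 5 UMIs favours genes high in the cluster here too.

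*Slc17a6*, the vesicular glutamate transporter of hindbrain excitatory neurons, had 1, 3, 21 and 19 UMIs in 26 nuclei and 128 CPM against 76.1 CPM in other neurons. *Slc32a1*, the transporter of inhibitory neurons, had 1 UMI, so the UMIs of the 2 genes stood at 44 to 1 (exact 95% interval of the ratio 7.50 to 1777, not corrected for gene length). *Gad1*, *Gad2* and *Slc6a5*, which mark GABA and glycine neurons, were at 0.12, 0.21 and 0.07 times the level of other neurons. *Slc17a7*, *Slc17a8*, *Chat*, *Slc6a4* and *Hdc* had no UMI, and *Tph2*, an enzyme of serotonin synthesis, had 6 UMIs in 4 nuclei. The nuclei thus held UMIs of a glutamate transporter beside the noradrenaline genes, and *Slc6a2* and *Slc17a6* were seen together in 15 of them.

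**Figure D2:**
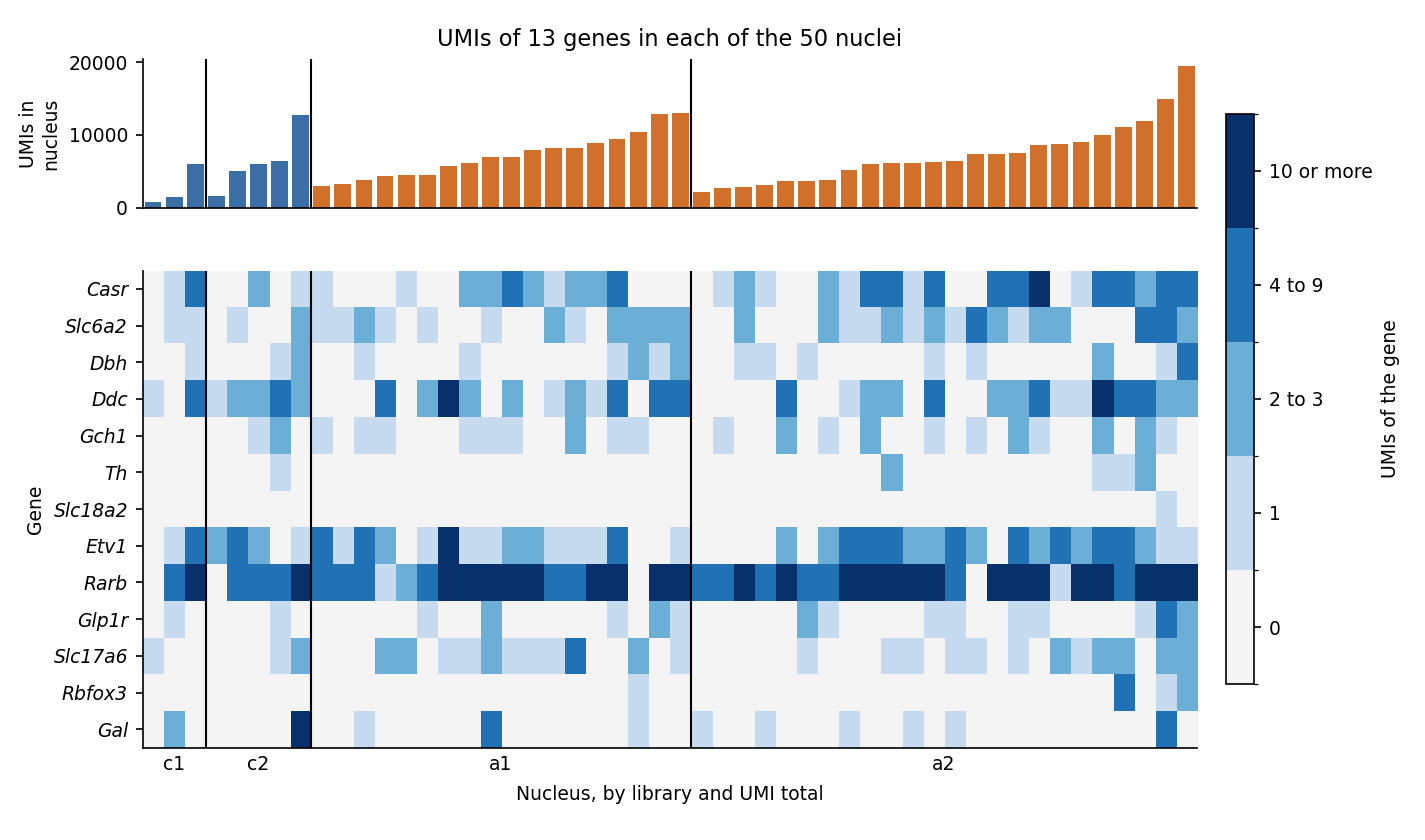
UMIs of 13 genes (rows) in each nucleus (columns, ordered within each library by UMI total, which the bars above give; blue control c1 and c2, orange AgRP-Gq;POMC-Gi a1 and a2). Rarb was found in 46 of the 50 nuclei, Casr and Slc6a2 in 32 each, Th in 5 and Slc18a2 in 1.

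Nuclei with UMIs of more markers also had more UMIs in all. *Casr*, *Slc6a2* or *Dbh* were found in 45 of the 50 nuclei, all 3 together in 7 (median 9436 UMIs) and none in 5 (median 2230 UMIs). *Casr* and *Slc6a2* shared 21 nuclei and *Dbh* and *Slc6a2* 12 (24%, exact interval 13.1 to 38.2%). The latter share was 4.26% with nuclei thinned to 2000 UMIs and 8% with at least 2 UMIs of each gene. In none of the 12489 other neurons were *Casr* and *Slc6a2* found together, and *Dbh* and *Slc6a2* were together in 3.

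Among 16816 oligodendrocytes, with a median of 2460 UMIs, *Dbh* and *Slc6a2* were together in 0, which allows a share of up to 0.0178%. *Casr* was found in 64% of the cluster's nuclei, 0.320% of other neurons and 0.0357% of oligodendrocytes. With each nucleus thinned to 2000 UMIs (3 nuclei of the cluster, 163 other neurons and 5416 oligodendrocytes were too shallow), the shares were 46.8%, 0.146% and 0.0351%. *Ddc* and *Etv1* differ here, since oligodendrocytes held them in 10.2% and 29.3% of nuclei, against 66% and 78% of the cluster. *Rnf220*, found in 96% of the cluster, was in 88.4% of oligodendrocytes and 40.1% of other neurons. *Th* was found in 10% of the cluster's nuclei, 2.23% of other neurons and 0.0476% of oligodendrocytes.

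Ranked by ratio, 25 genes were named among those seen in every library and in 25% or more of the nuclei. *Casr* and *Slc6a2* led, followed by *Pirt* (80.0 times), a membrane protein of sensory neurons that acts on TRPV1, then *Dbh*, *Etv1* (48.0 times), *Bace2* (40.8 times), *Cd24a* (37.8 times), *Glp1r* (33.8 times) and *Rarb* (31.0 times). *Rarb*, a retinoic acid receptor that acts as a transcription factor, was the most widely seen of these, with 3230, 938, 2505 and 2845 CPM and UMIs in 46 nuclei. Its level was the highest of all clusters, followed by 842 CPM in the Olfr78/Calcr cluster. *Etv1*, an ETS transcription factor, had 837, 344, 390 and 384 CPM, and another neuronal cluster was close at 387 CPM.

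*Tshr*, the receptor of thyroid-stimulating hormone, stood at 26.8 times and 169 CPM, with 24.1% of its UMIs in 1 nucleus. *1700042O10Rik* (25.3 times) lies on the other strand within *Ddc*, and whether the counting used strand is not given in the sources used here, so the levels of both are uncertain. The others were *Rprm* (24.7 times), *Prkd1* (15.6 times), *Lpcat2* (15.4 times, its reads may include those of *Capns2* on the same strand), *Skap1* (13.7 times), *Rph3al* (13.4 times), *Ammecr1* (13.1 times), *Dock6* (12.4 times), *Wdr66* (9.82 times), *Parm1* (9.28 times), *Gcnt2* (8.67 times), *Acsl1* (8.63 times) and *Tmem164* (8.49 times), beside *Ddc* and *Rnf220*. Just outside the list were *Lncenc1* (8.24 times) and *Esyt3* (8.14 times). Of the 25 genes, 20 had their highest level of the 134 neuronal clusters here, which their choice by ratio favours.

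At the other end, among genes found in at least 50% of other neurons, *Grm8*, a glutamate receptor, *Chrm2* and *Chrm3*, muscarinic acetylcholine receptors, and *Cdh8*, a cadherin, had no UMI in the 50 nuclei. Against 3 counts over the cluster they were at least 56.4, 29.8, 40.6 and 34.3 times lower than in other neurons. *Pcdh15* and *Nxph1* had 9 UMIs each, at 0.02 and 0.03 times the level of other neurons. *Rbfox3*, which encodes the neuronal marker NeuN, had 9 UMIs in 4 nuclei and the lowest level of all 134 clusters, 26.2 CPM against 256 CPM. The other pan-neuronal genes were near other neurons, from 0.74 times for *Elavl4* to 1.71 times for *Syt1*, so only *Rbfox3* among the 7 listed stood far below. *Rbfox3* was also below other neurons in Gfral/Sctr, Olfr78/Calcr and cluster 76, at 104, 72.3 and 106 CPM. In Ebf2/Th and Rxfp1/Ebf2 it was above them, at 446 and 400 CPM.

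*Glp1r*, the receptor of glucagon-like peptide 1, had 1, 1, 8 and 15 UMIs in 16 nuclei and the highest level of all clusters, 72.9 CPM against 36.2 CPM in the next. *Gfral*, the GDF15 receptor that marks the Gfral/Sctr cluster, had 2 UMIs, whereas its co-receptor *Ret* had 17 UMIs in 16 nuclei and 4.63 times the level of other neurons. *Ramp1* (11.4 times), *Ramp3* (9.63 times) and *Calcr* (6.01 times), parts of the calcitonin and amylin receptors, and *Npy1r* (5.88 times), a receptor of neuropeptide Y, were also above other neurons. *Lepr*, the leptin receptor, and the GIP receptor *Gipr* had no UMI, and *Mc4r* had 1. Of 44 metabolic and peptide receptors, 26 had a UMI, and all 44 together stood at 790 CPM against 713 CPM in other neurons. At least 5 UMIs, a limit that favours genes high in the cluster, were found for 12. Of these, 7 reached a ratio of 4, against 3.14% of all genes. One of the 7, *Tacr3*, had 80% of its UMIs in 1 nucleus.

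The 9 adrenergic receptors had 4 UMIs in all, 11.7 CPM against 73.4 CPM in other neurons, so receptors for noradrenaline were scarcely found in cells with its transporter. Among 30 neuropeptides, *Gal* (galanin) had 2, 13, 6 and 9 UMIs and 7.26 times the level of other neurons, but 13 of its 30 UMIs came from 1 nucleus of control replicate 2. *Nucb2*, the nesfatin precursor, had 81.7 CPM (4.35 times), the highest of all clusters. *Npy*, *Gcg*, *Tac1*, *Adcyap1* and *Prlh* had no UMI. Of the 21 genes of chemical and metabolic sensing, *Casr* alone reached a ratio of 4 among the 7 with at least 5 UMIs, and *Trpc5* (2.22 times) was next.

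*Hox* genes record position along the body axis of the embryo. Of 39, 11 had at least 5 UMIs and 10 of these were above other neurons, against 60.6% of all genes, with a median ratio of 2.60 against 1.12 for all genes. The limit of 5 UMIs favours genes high in the cluster here as well. *Hoxb5* (117 CPM, 6.27 times) had the highest level of all clusters, but it lies within the interval of Olfr78/Calcr (76.5 to 140 CPM), and *Hoxb6* (7.0 times), *Hoxa5* (5.80 times) and *Hoxb4* (3.73 times) ranked 2 or 3. Among potassium channel genes *Kcnq5* (5.24 times, 43 nuclei), the M-current subunit, and *Kcnn3* (4.62 times, 29 nuclei), a calcium-activated channel, were above other neurons. The median ratio over 37 potassium channel genes was 0.79. Among the neuronal clusters *Kcnq5* ranked 2 and *Kcnn3* ranked 3. Gfral/Sctr had the highest *Kcnn3* level, 199 CPM against 143 CPM here. The sodium channels *Scn1a*, *Scn8a* and *Scn9a* were at 0.27, 0.27 and 0.25 times the level of other neurons, at ranks 134, 133 and 130, whereas *Scn3a* was at 1.75 times.

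Of the other neuronal clusters, Gfral/Sctr was the most alike, with Pearson's r of 0.884 over log2(CPM + 10) of 10237 genes, followed by Olfr78/Calcr (r = 0.878) and cluster 76 (r = 0.870). The median over all clusters was 0.796. These r describe genes of the same libraries, which are not independent. Ebf2/Th and Rxfp1/Ebf2, which also held *Th*, ranked 100 and 118. The 3 most alike clusters shared *Rnf220*, *Tfap2b*, *Gch1* and *Slc17a6* with the Casr/Slc6a2 neurons, and Gfral/Sctr shared *Etv1* and *Tshr* as well. *Pirt* stood at 52.7 CPM (38.2 to 71.1) in Gfral/Sctr and 51.3 CPM (32.1 to 77.7) in Olfr78/Calcr. Both intervals overlap that of the Casr/Slc6a2 neurons (84.6 CPM, 56.6 to 121). *Ret* had 61.3 CPM in Gfral/Sctr, and *Ramp3* had 67.6 CPM in Olfr78/Calcr. *Ddc* was also high in Gfral/Sctr (412 CPM) and cluster 76 (226 CPM). Cluster 76 held *Slc18a2* and *Th*, of which the Casr/Slc6a2 neurons had little, and had 4.52 CPM of *Slc6a2*. Olfr78/Calcr had 345 CPM of *Calcr* and hardly any *Dbh* (2.33 CPM).

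**Figure D3:**
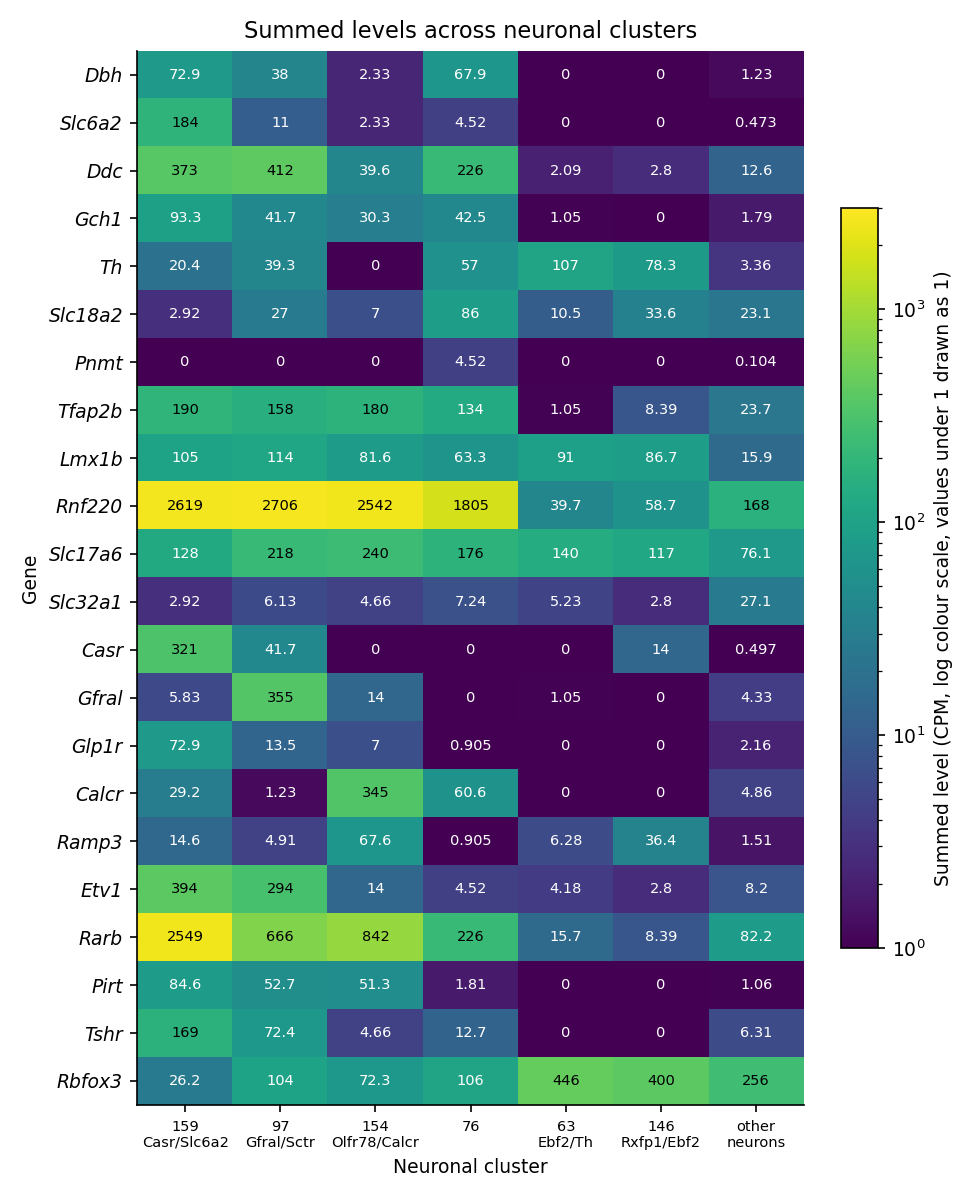
Summed level (CPM, printed in each cell and coloured on a log scale) of 22 genes in the Casr/Slc6a2 cluster, in the 5 clusters it is set against and in all other neurons. The Casr/Slc6a2 column stands out by Casr and Slc6a2, shares Rnf220 and Tfap2b with Gfral/Sctr, Olfr78/Calcr and cluster 76, and has the lowest Slc18a2 and Rbfox3 of the 6 clusters.

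The cluster held 0.121% of neurons in control replicate 1 (3 of 2470, exact 95% interval 0.0251 to 0.355%), 0.183% in control replicate 2 (5 of 2736, 0.0594 to 0.426%), 0.487% in AgRP-Gq;POMC-Gi replicate 1 (18 of 3696, 0.289 to 0.769%) and 0.660% in replicate 2 (24 of 3637, 0.423 to 0.980%). The groups did not overlap, at 0.573% ± 0.122 against 0.152% ± 0.0433 (SD, n = 2), a ratio of 3.77. The exact permutation test gave p = 0.333 (two-sided), the smallest p that 2 libraries against 2 allow. Of the 134 neuronal clusters, 24.6% had the 2 control libraries below the 2 of AgRP-Gq;POMC-Gi mice, and the ratio of Casr/Slc6a2 ranked 2. EdgeR's quasi-likelihood test of nuclei counts over all clusters, added after the data were seen, gave a log2 fold change of 1.88 ± 0.73 (SE), an unadjusted p of 0.0309 and an adjusted p of 0.591, and called none of the 134 clusters.

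The clusters most alike differed in the same direction. Olfr78/Calcr had 0.121, 0.146, 0.676 and 0.577% of neurons (ratio 4.68, rank 1), Gfral/Sctr had 0.283, 0.621, 1.08 and 1.02% (ratio 2.32, rank 7) and cluster 76 had 0.526, 0.877, 1.16 and 1.10% (ratio 1.61). Of the less alike clusters, Rxfp1/Ebf2 had a ratio of 1.71 without overlap and Ebf2/Th had overlapping groups. Neurons themselves made up 25.4, 27.2, 38.0 and 36.5% of nuclei. Among the nuclei of these 4 clusters alone, also added after the data were seen, Casr/Slc6a2 took 11.5, 10, 14.3 and 19.7%, a ratio of 1.58 (exact permutation p = 0.333). What part the share of neurons, or whatever the alike clusters have in common, has in this difference was not tested. Neurons with a UMI of both *Casr* and *Slc6a2*, all of them in the cluster, numbered 2, 1, 5 and 13.

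**Figure D4:**
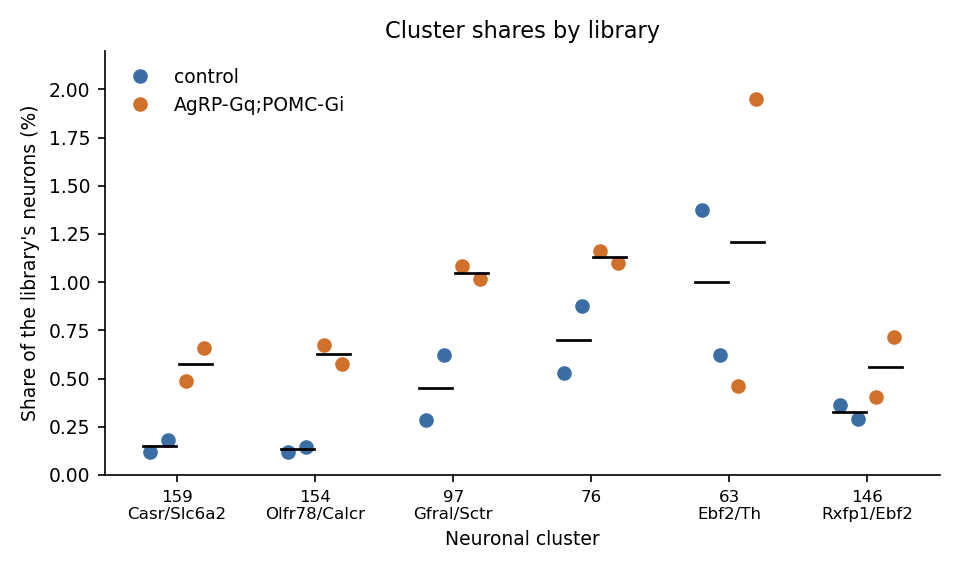
Share of each library's neurons (%) in the Casr/Slc6a2 cluster, in the 3 clusters most like it and in 2 other clusters; points are libraries (blue control, orange AgRP-Gq;POMC-Gi) and lines group means. In each cluster but Ebf2/Th the orange points lie above the blue points.

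Within the cluster, no gene passed the test between the groups. On UMIs summed per library, edgeR's quasi-likelihood test with Benjamini-Hochberg adjustment called 0 of 10688 genes (0%) at an adjusted p under 0.05, and 654 (6.12%) had an unadjusted p under 0.05. DESeq2 called 0, and 224 genes were under 0.05 before adjustment. With all genes and no filter 7 were called, and leaving out control replicate 1 or 2 gave 27 and 53 calls, with the lone control library assumed to vary like the others. The fit was made although control replicate 1 had 3 nuclei, and it depends on the scaling. TMM factors were 1.88, 1.04, 0.70 and 0.74, and with them the median log2 fold change of all genes was 0.79, against 0.07 without. Of the genes with an unadjusted p under 0.05, 602 were higher and 52 lower in AgRP-Gq;POMC-Gi mice with these factors, and 158 higher and 305 lower without.

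Of genes with a higher level in AgRP-Gq;POMC-Gi mice, the smallest p belonged to *Ammecr1*, *Rtl4*, *Car10*, *Erbb4* and *Dpp10*, each with an adjusted p of 0.124 in edgeR. In edgeR with no filter on genes, *Ammecr1*, *Dpp10* and *Rtl4* were called, with adjusted p of 0.0232, 0.0362 and 0.0439, and *Car10* and *Erbb4* were not. *Ammecr1* (chrX:142851146-142966728) had 359, 407, 1826 and 1514 CPM from 3, 13, 234 and 264 UMIs, a log2 fold change of 2.89 ± 0.67 (SE). The groups did not overlap, and a UMI was found in 1 of 3, 3 of 5, 18 of 18 and 21 of 24 nuclei. The median share of mitochondrial UMIs in the cluster moved with the groups, at 0.457, 0.307, 0.107 and 0.103%, against 0.105, 0.123, 0.0659 and 0.0936% in other neurons, and its part in these differences was not tested. *Rtl4* had 1, 5, 107 and 140 UMIs (3.23 ± 0.77), *Car10* 3, 4, 134 and 121 (3.04 ± 0.75) and *Dpp10* 9, 11, 268 and 309 (2.64 ± 0.66), and in none of them did the groups overlap as CPM. All these genes were picked by their p, which favours groups without overlap. The share of all genes without overlap was not counted. Of the 115 *Erbb4* UMIs, 97 came from 1 nucleus of AgRP-Gq;POMC-Gi replicate 2.

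Of genes with a lower level, *Cdh20*, *4930419G24Rik*, *Yeats4*, *Gal* and *Pex5l* had adjusted p of 0.398 to 0.585. *Gal* had 239, 407, 46.8 and 51.6 CPM (−2.08 ± 0.73) and *Pex5l* 239, 344, 31.2 and 45.9 CPM, with 13 of 30 and 11 of 25 UMIs in 1 nucleus of control replicate 2. *Cdh20* had 0, 16, 5 and 7 UMIs in 5 nuclei, 12 of them in 1 nucleus of that library, and without control replicate 2 its log2 fold change turned to 5.13. The same library also had the highest summed level of 8 oligodendrocyte markers, 970 CPM against 239, 172 and 201 CPM, while *Opalin*, a defining marker, had 1 UMI in the cluster. *Ttr*, a choroid plexus transcript, had 0, 48, 4 and 106 UMIs. Their part in these differences was not tested.

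**Figure D5:**
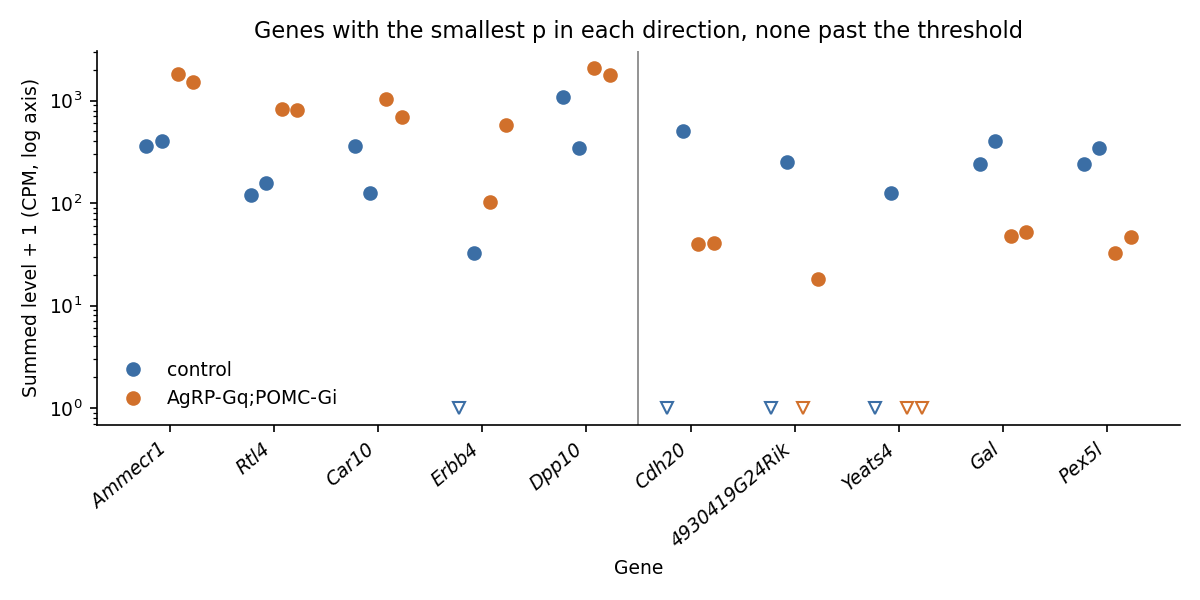
Summed level + 1 in CPM (log axis) in each library (blue control, orange AgRP-Gq;POMC-Gi) of the 5 genes with the smallest p in each direction; open triangles are libraries without a UMI. Ammecr1, Rtl4, Car10 and Dpp10 have both orange points above both blue points, and none of the 10 genes passed the test.

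The difference between the groups was also compared with that in other neurons, by an interaction term in edgeR with the library as a block. It passed for *Ammecr1* alone, 1 of 10688 genes (0.00936%), with 2.75 ± 0.57 (SE) on the log2 scale and an adjusted p of 0.0176, and 575 genes (5.38%) had an unadjusted p under 0.05. This call was lost without TMM factors (adjusted p = 0.146), in DESeq2 (0.0728), with the library as a random effect (0.0574) and when either AgRP-Gq;POMC-Gi library was left out (both 1). The *Ammecr1* values in these fits were 2.08, 2.86, 2.78, 2.80 and 3.04 on the log2 scale.

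The immediate early genes (IEGs), which are transcribed within minutes of neuronal activity, had few UMIs in these nuclei. The study's 10 IEGs had 1, 6, 12 and 32 UMIs in the cluster, 120, 188, 93.6 and 184 CPM, and the groups overlapped. Over all nuclei of the cluster their level was 149 CPM, against 166 CPM in other neurons. At least 5 UMIs, a limit that favours genes high in the cluster, were found for 4 of them. Of these, 3 were above other neurons, against 60.6% of all genes. *Fos*, *Fosl2* and *Nr4a3* had no UMI, and for *Fos* the 8.75 CPM that a count of 0 allows over the cluster is above the 6.20 CPM of other neurons. *Homer1* had 0, 0, 4 and 10 UMIs, *Nr4a1* 0, 0, 2 and 4, *Btg1* 0, 3, 3 and 11 and *Jun* 0, 2, 2 and 2. All of these control values are at or under 3 counts, so no fold change is given. None of the 5 IEGs that could be tested had an unadjusted p under 0.05 in edgeR, against 6.12% of all genes, and the smallest was 0.0553 for *Homer1*. With no filter on genes, 1 of 7 IEGs had an unadjusted p under 0.05, with a higher level in AgRP-Gq;POMC-Gi mice. What size of difference in IEGs these libraries could show was not tested.

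The genes that name the cluster did not pass the test either. Nuclei of both groups were placed in the cluster by expression, so this test cannot show whether these genes differ between the groups. *Casr* had a log2 fold change of 1.19 ± 0.71 (SE), *Slc6a2* of 1.32 ± 0.82, *Ddc* of 0.45 ± 0.64 and *Dbh* of 0.24 ± 0.97, with adjusted p of 0.743 to 0.946 in edgeR, and the median of all genes was 0.79. Without TMM factors, where the median of all genes was 0.07, *Casr* and *Slc6a2* kept their sign at 0.39 and 0.56, and *Ddc* and *Dbh* turned to −0.38 and −0.52. All 4 values without the factors are below the SE given above. None of the 11 tested genes of catecholamine synthesis and transport, the 18 tested receptors or the 12 tested neuropeptides passed the test. The same held for all 10688 genes, so this is no trait of the lists.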

How the data were processed

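Nuclei were sorted and sequenced with a 10x 3′ kit. The authors made the deposited UMI counts per gene and nucleus with Cell Ranger 7.0.0 on GRCm38, kept nuclei with at least 800 UMIs, 500 genes and at most 10 percent mitochondrial reads (a percent column deposited with the annotation), removed doublets, and clustered them with Seurat 4.3.0 and scVI. Their cluster names were used as deposited. Their IEG scores and the joined matrix were not used. Kept nuclei held 48904976 to 53089402 UMIs per library.

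UMIs of the cluster were summed per library. CPM are per 1e6 UMIs of the same nuclei. Groups were compared with edgeR 4.0.16 (quasi-likelihood, TMM, Benjamini-Hochberg adjustment, R 4.3.3), with DESeq2 1.42.0 as an alternative. Only the fits of the group contrast and of the interaction were also run on simulated counts. Intervals are exact, at 95%. Named genes were the 25 with the highest ratio to other neurons, the 10 lowest, and the 5 with the smallest p in each direction of the group contrast. The cluster, its markers and all gene lists were chosen with earlier results of these data known. Some genes of these lists are counted but not reported here by name.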

Additional observations from a re-analysis of the deposited data

Results flagged for a closer look

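*Ammecr1* was flagged because its difference between AgRP-Gq;POMC-Gi and control libraries was not the same in the Casr/Slc6a2 cluster as in other neurons, by 2.75 ± 0.57 (SE) on the log2 scale (edgeR interaction term, adjusted p = 0.0176). It had 3, 13, 234 and 264 UMIs in the cluster. The call was lost without TMM factors (adjusted p = 0.146), in DESeq2 (0.0728) and with the library as a random effect (0.0574). The term was 2.42 and 3.52 without control replicates 1 and 2, and 2.80 and 3.04 without AgRP-Gq;POMC-Gi replicates 1 and 2. Each of these fits leaves 1 library in a group, so only the size is given. Groups of 2 libraries are too small to look for single libraries that stand apart.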

How the results depend on the processing

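The share of neurons in the Casr/Slc6a2 cluster stayed higher in AgRP-Gq;POMC-Gi libraries, by 3.14 to 4.72-fold with 1 library left out, 5.29-fold over all nuclei and 6.14-fold over nuclei with at least 2000 UMIs. The ratio to other neurons ranged with 1 library left out from 377 to 956 for *Casr*, 284 to 509 for *Slc6a2* and 50.7 to 73.2 for *Dbh*. With nuclei thinned to 2000 UMIs these ratios were 450, 295 and 37.5, and from the mean CPM of single nuclei 436, 356 and 48.2, and the median over other clusters gave no value because it was 0. The ratio of *Slc17a6* to *Slc32a1* was 23 to 43, with no value without control replicate 2. *Dbh* and *Slc6a2* were together in 4.26% of nuclei thinned to 2000 UMIs and in 8% with at least 2 UMIs of each, against 24%. Genes called between groups numbered 7 with no filter and 0 to 53 with 1 library left out, and IEGs at an unadjusted p under 0.05 numbered 1 with no filter. The interaction called 2 genes without TMM factors, 0 in DESeq2, 4 with the library as a random effect (*Ammecr1* in none of these 3) and 0 to 52 with 1 library left out. With 1 library left out the log2 fold change ranged from -3.13 to 5.13 for *Cdh20*, from -5.82 to 3.23 for *4930419G24Rik* and from -6.38 to 0 for *Yeats4*, each highest without control replicate 2. The cause was not tested, except that this library holds all or most control UMIs of the 3 genes. Counted over single genes and settings, 82 values kept direction and side of the threshold, 13 passed it, 5 lost it, 2 turned sign and 1 was 0.

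The labels share 2 replicate numbers, which mark nothing in common (correlation of same-numbered deviations 0.03 over 3454 genes), and a fit with the replicate number as a block called 0 genes, with 221 at an unadjusted p under 0.05. Control libraries held 3 and 5 nuclei.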

Other observations

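Outside the Casr/Slc6a2 cluster, *Casr* was found in 0.243, 0.293, 0.462 and 0.249% of neurons, *Slc6a2* in 0.162, 0.439, 0.462 and 0.304% and *Dbh* in 0.608, 0.549, 1.20 and 0.996%. For *Dbh*, as for the share of the cluster, both AgRP-Gq;POMC-Gi libraries were above both control libraries, and for *Casr* and *Slc6a2* the groups overlapped. No test was made of these shares, and how many of all genes have such an order was not counted.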
